A study of Mus musculus with 8 samples.

Results

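Neurotrophic factors are secreted proteins that keep sensory neurons alive and guide the growth of their axons. The 9 genes described here encode 4 ligands (Bdnf, Ntf3, Gdnf and Artn) and 5 receptors (Ngfr, Ntrk2, Ntrk3, Gfra1 and Ret) of the neurotrophin and GDNF families. They were picked by name from the 16091 genes of the deposited table, and all 9 were present and passed the filter on low values, as did 16085 genes in all. Whole corneas of 2 mouse genotypes were compared, in 4 Opn5-/- (Opn5-null) and 4 wild-type libraries. All were collected 12 hours after the epithelium had been scraped off. Opn5 encodes opsin 5, a violet-sensitive photopigment. The series title concerns violet light and wound healing and the sample titles carry the word Light, but the labels name no exposure. They also give no strain, age, sex or type of null allele, and nothing in them says that the libraries of a genotype came from separate animals. The p-values thus rest on the spread among these libraries, part of which may be technical.

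The neurotrophins signal through Trk receptor tyrosine kinases: BDNF through TrkB (Ntrk2) and neurotrophin 3 through TrkC (Ntrk3). Both also bind a shared receptor of the tumour necrosis factor receptor superfamily, the product of Ngfr. GDNF and artemin signal through the receptor tyrosine kinase RET after binding a membrane-anchored co-receptor, GFRA1 for GDNF and GFRA3 for artemin. The cornea is densely supplied by sensory axons whose cell bodies lie in the trigeminal ganglion, so the RNA of a corneal sample comes mostly from corneal cells, Schwann cells and infiltrating leukocytes rather than from the neurons.

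The libraries held 21111715 to 28219234 reads over the genes of the table. Opn5-null D stood apart: its 17 corneal epithelium markers lay on average at -2.35 from the wild-type mean on the log2 scale, against -1.09 to -0.53 in the other Opn5-null libraries. Without it, Gdnf and Bdnf had log2 fold changes of 1.12 (limma adjusted p = 0.00124) and 0.97 (limma adjusted p = 0.0475), and Ntrk3 one of -1.25 (limma adjusted p = 0.00403). The values of Gfra1, Ngfr and Ntf3 without it stand beside their results.

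At 12 hours, Gdnf, Bdnf and the GDNF co-receptor gene Gfra1 were higher in Opn5-null corneas, and the receptor genes Ntrk3 and Ngfr were lower. The transcripts of Ntf3, Artn, Ntrk2 and Ret did not pass the test. Thus 3 of 9 members rose and 2 fell at a Benjamini-Hochberg adjusted p below 0.05 by limma on log2(normalized count + 1). The background was high: of all 16085 genes tested, 32.4% were called, 18.8% of them higher and 13.5% lower in Opn5-null corneas as shares of the genes tested. The median log2 fold change was -0.09 over the 9 members and -0.02 over all genes. In 3 members, Gdnf, Gfra1 and Ntrk3, the 4 libraries of one genotype did not overlap those of the other, and 38.4% of all genes showed such a separation. The authors' deposited table called 5 of the 9 members at its own adjusted p-value below 0.05, against 38.8% of its genes. By edgeR on recovered reads, 4 of the 9 were called, against 32% of genes.

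Promoter sequences are shown for the 3 members that rose, 1 window each, so that the start regions can be read beside the values. RefSeq windows on GRCm38.p6, covering 250 bases before and 50 after an annotated start, were found for 7 members (15 windows), and Ntrk3 and Ret had no entry. The Bdnf window is chr2:109692186-109692485 (plus strand), 1 of 7 for that gene, and the Gdnf window is chr15:7809798-7810097 (plus strand), 1 of 2. These were chosen because they hold a match to TGACG, a half-site of the cyclic AMP response element. The Gfra1 window, chr19:58455349-58455648 (minus strand), is its only one. Capitals mark matches to the motifs searched, and each sequence runs 5′ to 3′ on the gene's strand.
Bdnf: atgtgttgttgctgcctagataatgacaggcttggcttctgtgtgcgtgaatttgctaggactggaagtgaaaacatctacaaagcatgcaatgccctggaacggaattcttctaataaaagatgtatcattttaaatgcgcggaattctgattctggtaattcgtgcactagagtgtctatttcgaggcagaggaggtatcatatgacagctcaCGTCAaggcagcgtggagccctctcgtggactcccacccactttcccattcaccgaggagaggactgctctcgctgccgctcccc
Gdnf: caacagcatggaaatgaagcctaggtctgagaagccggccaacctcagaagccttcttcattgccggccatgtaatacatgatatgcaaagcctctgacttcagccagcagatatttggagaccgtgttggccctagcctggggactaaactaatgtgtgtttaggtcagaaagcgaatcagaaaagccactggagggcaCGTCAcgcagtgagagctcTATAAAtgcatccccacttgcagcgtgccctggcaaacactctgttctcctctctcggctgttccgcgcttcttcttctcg
Gfra1: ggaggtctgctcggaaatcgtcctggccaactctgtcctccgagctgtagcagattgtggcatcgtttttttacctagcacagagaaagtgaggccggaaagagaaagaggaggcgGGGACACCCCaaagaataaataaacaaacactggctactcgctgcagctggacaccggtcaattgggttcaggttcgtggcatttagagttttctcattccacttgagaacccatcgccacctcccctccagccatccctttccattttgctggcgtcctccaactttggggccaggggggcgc

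In the Bdnf window CGTCA, the reverse complement of TGACG, began 35 bases before the start. In the Gdnf window CGTCA began 50 bases and TATAAA 31 bases before the start. A match to TGACG on either strand occurred in 20.8% of the 32851 promoter windows in RefSeq, and TATAAA on the gene's strand in 8.32%. Since the Bdnf and Gdnf windows were chosen for TGACG, its presence in them is no result. None of the members' other windows held it. The Gfra1 window held a match to the kappaB consensus, GGGACACCCC, 134 bases before the start, and 4.51% of all windows held one on either strand. The full element TGACGTCA, found in 1.79% of windows, was in none of the members' 15 windows. TGANTCA, a pattern looser than the AP-1 element, matched 1 of the other Bdnf windows, as TGAATCA, and 7.81% of all windows. CACGTG, an E-box, was in 1 Ntf3 window and in 7.15% of all windows. The kappaB consensus also matched 1 other Bdnf window. These matches describe letters only, and which start each gene used in these corneas was not measured.

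**Figure D1:**
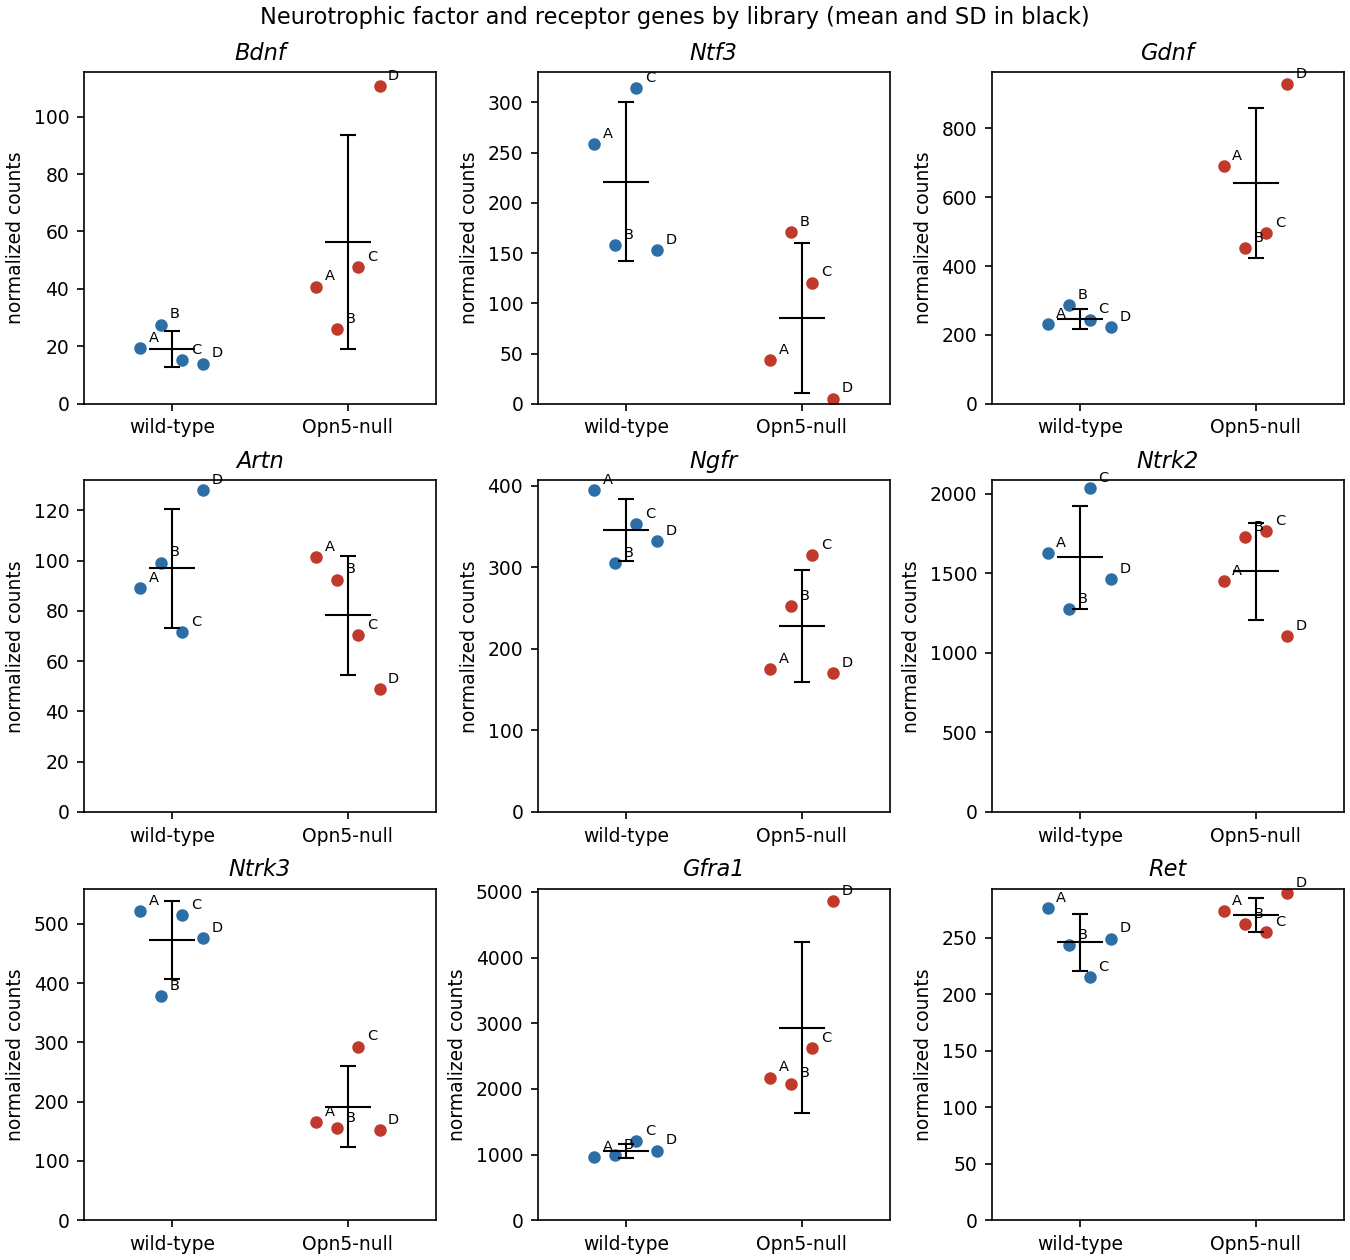
Normalized counts (vertical axis, from 0) of the 9 genes in each library, wild-type in blue and Opn5-null in red, with library letters, and the mean and SD of 4 libraries in black. Gdnf, Gfra1 and Ntrk3 show no overlap between genotypes, and Opn5-null D holds the highest Bdnf, Gdnf and Gfra1 values and the lowest Ntf3 value.

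Gdnf, on chromosome 15 (ENSMUSG00000022144), encodes glial cell line-derived neurotrophic factor. Its normalized counts, which are reads divided by 1 size factor per library, were 691, 452, 496 and 927 in Opn5-null A to D. Wild-type A, B, C and D measured 232, 288, 245 and 223. Every Opn5-null library lay above every wild-type library. Means were 641 ± 217 and 247 ± 28.5 (SD, n = 4), a 2.60-fold difference with a log2 fold change of 1.32 ± 0.22 (SE, limma adjusted p = 0.00280).

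Bdnf, on chromosome 2 (ENSMUSG00000048482), encodes brain-derived neurotrophic factor and was the least abundant member in normalized counts. Opn5-null A, B, C and D measured 40.8, 26.1, 47.7 and 111 normalized counts, and the wild-type libraries measured 19.4, 27.6, 15.3 and 14.0. The genotypes overlapped, since Opn5-null B lay below wild-type B. Bdnf was 2.95-fold higher in Opn5-null corneas by the means, 56.3 ± 37.3 against 19.1 ± 6.11 (SD, n = 4), with a log2 fold change of 1.36 ± 0.43 (SE, limma adjusted p = 0.0399). These values rest on 15 to 127 reads per library. Left-out libraries ended the call, with adjusted p = 0.0612 without Opn5-null A, 0.0587 without Opn5-null C, and 0.0857, 0.0990 and 0.101 without wild-type A, C and D. Quantile normalization also ended it (adjusted p = 0.0512 by limma), as did limma-voom with quality weights (adjusted p = 0.0668). GENCODE M21 places the antisense gene Gm45346 over exons of Bdnf, and no label names the strand setting of the authors' counting, so reads of the 2 strands may be mixed.

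Artn, on chromosome 4 (ENSMUSG00000028539), encodes artemin. Its normalized counts were 101, 92.5, 70.3 and 48.8 in Opn5-null A to D, and 89.0, 99.2, 71.7 and 128 in wild-type A to D. The ranges overlapped, and the difference did not pass the test, with a log2 fold change of -0.33 and a 95% confidence interval from -0.94 to 0.28 (adjusted p = 0.372 by limma).

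Ntf3, on chromosome 6 (ENSMUSG00000049107), encodes neurotrophin 3 and was the most variable member. Opn5-null A, B, C and D measured 43.4, 171, 121 and 5.22 normalized counts, and wild-type A, B, C and D measured 259, 158, 314 and 153. Opn5-null D held 6 reads, and Opn5-null B lay within the wild-type range. Means were 85.0 ± 74.6 and 221 ± 79.0 (SD, n = 4), a 2.60-fold lower mean. The difference of mean log2 values, in which the 6 reads of Opn5-null D weigh heavily, was -2.11 ± 0.94 (SE), with a 95% confidence interval from -4.25 to 0.03 and adjusted p = 0.116 by limma, and edgeR gave a log2 fold change of -1.38 (adjusted p = 0.170). Without Opn5-null D the log2 fold change was -1.12 (adjusted p = 0.118 by limma).

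The libraries with the lowest Ntf3, Opn5-null D and A, also had the lowest corneal epithelium markers, while Opn5-null B had epithelial markers below every wild-type library and Ntf3 within the wild-type range. Set against the wild-type mean on the log2 scale, Ntf3 stood at -2.25, -0.30, -0.80 and -5.09 in Opn5-null A to D. The mean of the 17 epithelial markers in the table stood at -1.09, -0.62, -0.53 and -2.35 in the same libraries. In wild-type A to D, Ntf3 stood at 0.29, -0.41, 0.58 and -0.46 and the epithelial mean at 0.07, -0.12, 0.23 and -0.18. Of these markers 6 fell and 0 rose, and their summed level was 132687 to 509290 normalized counts in Opn5-null against 662228 to 850003 in wild-type corneas. Their part in the Ntf3 values was not tested. In bulk samples, fewer cells of a type and less RNA per cell cannot be told apart.

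**Figure D2:**
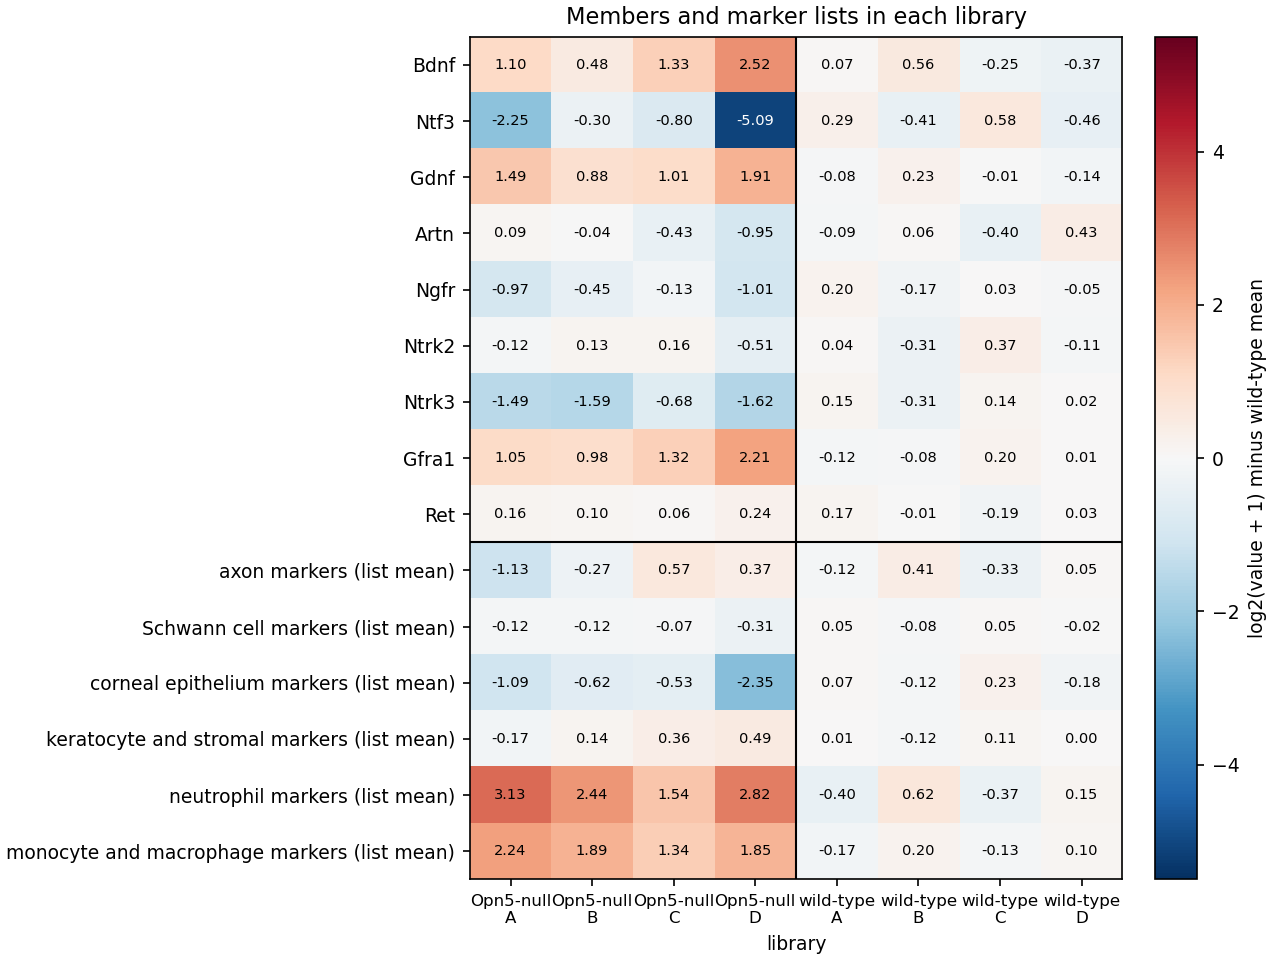
Log2(normalized count + 1) minus the wild-type mean for the 9 genes (upper rows) and the mean of 6 marker lists (lower rows) in each library (columns), with red above and blue below the wild-type mean. Ntf3 reads -5.09 in Opn5-null D, where the epithelial list reads -2.35, and the neutrophil list reads 1.54 to 3.13 in the Opn5-null libraries.

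Among the receptors, Gfra1 rose. Gfra1, on chromosome 19 (ENSMUSG00000025089), encodes the co-receptor that presents GDNF to RET. Its normalized counts were 2171, 2080, 2621 and 4855 in Opn5-null A to D and 965, 993, 1204 and 1058 in wild-type A to D. The lowest Opn5-null library lay above the highest wild-type library. The mean was 2.78-fold higher, 2932 ± 1304 against 1055 ± 107 (SD, n = 4), with a log2 fold change of 1.39 ± 0.25 (SE, limma adjusted p = 0.00430). Without Opn5-null D, the highest library, the log2 fold change was 1.12 (adjusted p = 0.000215 by limma). GENCODE M21 places the antisense gene Gm16277 over exons of Gfra1, so the limit on strand named for Bdnf holds here too.

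Ret, on chromosome 6 (ENSMUSG00000030110), encodes the tyrosine kinase shared by the GDNF family. It measured 274, 262, 255 and 290 normalized counts in Opn5-null A to D and 276, 244, 215 and 249 in wild-type A to D. The genotypes overlapped, and the log2 fold change of 0.14 had a 95% confidence interval from -0.10 to 0.38 (adjusted p = 0.339 by limma). Among Opn5-null libraries Ret had the smallest coefficient of variation of the 9 members, 5.62%, where counting error alone would give 6.12%. Among wild-type libraries it was 10.2%, close to that of Gfra1 (10.1%) and Ngfr (10.9%).

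Ntrk3, on chromosome 7 (ENSMUSG00000059146), encodes TrkC, the receptor of neurotrophin 3. Opn5-null A, B, C and D measured 166, 155, 293 and 151 normalized counts, and wild-type A, B, C and D measured 522, 379, 515 and 476. All Opn5-null libraries lay below all wild-type libraries, with Opn5-null C the nearest to them. Ntrk3 was 2.47-fold lower, 191 ± 68.0 against 473 ± 65.98 (SD, n = 4), with a log2 fold change of -1.35 ± 0.22 (SE, limma adjusted p = 0.00256).

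Ngfr, on chromosome 11 (ENSMUSG00000000120), encodes the receptor shared by the neurotrophins and marks Schwann cells that have lost contact with axons. It measured 175, 252, 315 and 171 normalized counts in Opn5-null A to D and 395, 305, 353 and 332 in wild-type A to D. Only Opn5-null C reached the wild-type range. The level was 1.52-fold lower, 228 ± 68.8 against 346 ± 37.9 (SD, n = 4), with a log2 fold change of -0.64 ± 0.20 (SE, limma adjusted p = 0.0415). The call was marginal: edgeR on recovered reads gave adjusted p = 0.0538. Leaving out any single library except Opn5-null C ended it, with adjusted p from 0.0532 without Opn5-null B to 0.113 without wild-type A. The values between were 0.0933 and 0.0664 without Opn5-null A and D, and 0.0625, 0.0953 and 0.0825 without wild-type B, C and D.

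Ntrk2, on chromosome 13 (ENSMUSG00000055254), encodes TrkB, the receptor of BDNF, and did not pass the test. Its normalized counts were 1453, 1727, 1764 and 1105 in Opn5-null A to D and 1627, 1276, 2038 and 1463 in wild-type A to D. The genotypes overlapped, with a log2 fold change of -0.09 and a 95% confidence interval from -0.51 to 0.34 (adjusted p = 0.755 by limma). The table holds 1 value per gene, so full-length and truncated TrkB and TrkC, which both genes encode, were not told apart.

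**Figure D3:**
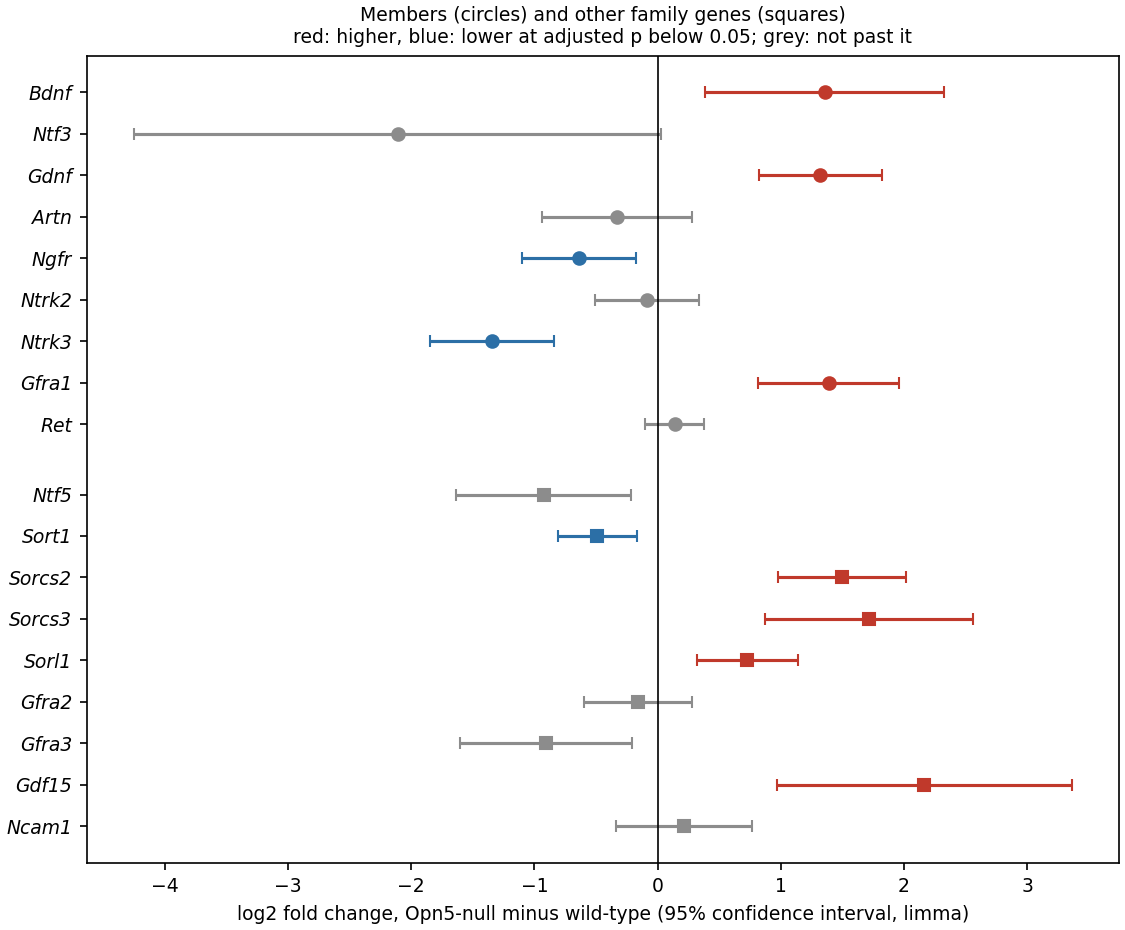
Log2 fold change, Opn5-null minus wild-type (horizontal axis), with its 95% confidence interval from limma, for the 9 members (circles) and 9 other genes listed with the 2 families (squares). Red points were higher and blue points lower at an adjusted p below 0.05, and grey points did not pass, among them Ntf3, whose interval runs from -4.25 to 0.03.

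Levels of different genes were set side by side only per length, as normalized counts per 1000 bases of GENCODE M21 exon sequence. In wild-type corneas Gfra1 had the highest level per length, 193 ± 19.5 (SD, n = 4). Ntf3 at 129, Ngfr at 100.4, Ntrk2 at 83.0 and Gdnf at 67.2 followed, and each overlapped its neighbour in this order across libraries, Gfra1 and Ntf3 included. Artn at 40.3 and Ret at 36.4 overlapped each other and lay below all Gdnf values, Ntrk3 stood at 15.7, and Bdnf was lowest at 3.07 per 1000 bases. In Opn5-null corneas Gfra1 at 535 ± 238 and Gdnf at 175 ± 59.0 (SD, n = 4) per 1000 bases came first and second, with no overlap between them or with Ntrk2 at 78.4. Ngfr, Ntf3, Ret and Artn overlapped in sequence at 66.2, 49.6, 40.0 and 32.5. Bdnf at 9.05 and Ntrk3 at 6.34 per 1000 bases were lowest and overlapped. The order depends on the length used: exons of all Ntrk2 transcripts span 19292 bases but the longest coding one 8744. With the longest coding transcripts, Ntrk2 measured 183 per 1000 bases in wild-type corneas and Ntf3 149. Their ranges overlapped (146 to 233 and 103 to 212), and that of Ntrk2 also overlapped Gfra1 (208 to 260). In Opn5-null corneas Ntrk2 then measured 173 and Gdnf 175 per 1000 bases, with overlapping ranges.

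Ratios of 2 genes within a library do not depend on its scaling, and 5 were computed, of which 4 are given. On the log2 scale, the ratio of Gdnf to Artn was 2.77, 2.29, 2.82 and 4.25 in Opn5-null A to D and 1.38, 1.54, 1.77 and 0.80 in wild-type A to D. The groups did not overlap, and the difference of mean log2 ratios was 1.66 (exact two-sided permutation test, p = 0.0286, the smallest that 4 against 4 libraries allow, adjusted p = 0.0476 over the 5 ratios). Gfra1 to Ret had mean log2 ratios of 3.35 ± 0.51 and 2.10 ± 0.28 (SD, n = 4), a difference of 1.25 with the same exact permutation p = 0.0286 and adjusted p = 0.0476. The co-receptor transcript was thus more abundant relative to the kinase transcript in all 4 Opn5-null libraries than in any wild-type library. Gdnf and Gfra1 had already separated the genotypes alone, so both ratios restate those values rather than add to them. Ngfr to Ntrk3 had mean log2 ratios of 0.26 ± 0.29 (Opn5-null) and -0.44 ± 0.11 (wild-type) (SD, n = 4), again without overlap (exact permutation p = 0.0286, adjusted p = 0.0476), so Ntrk3 was lower by more than Ngfr was. Ngfr to Ntrk2 differed by -0.56 (exact permutation p = 0.0571, adjusted p = 0.0714), with overlap between the genotypes.

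**Figure D4:**
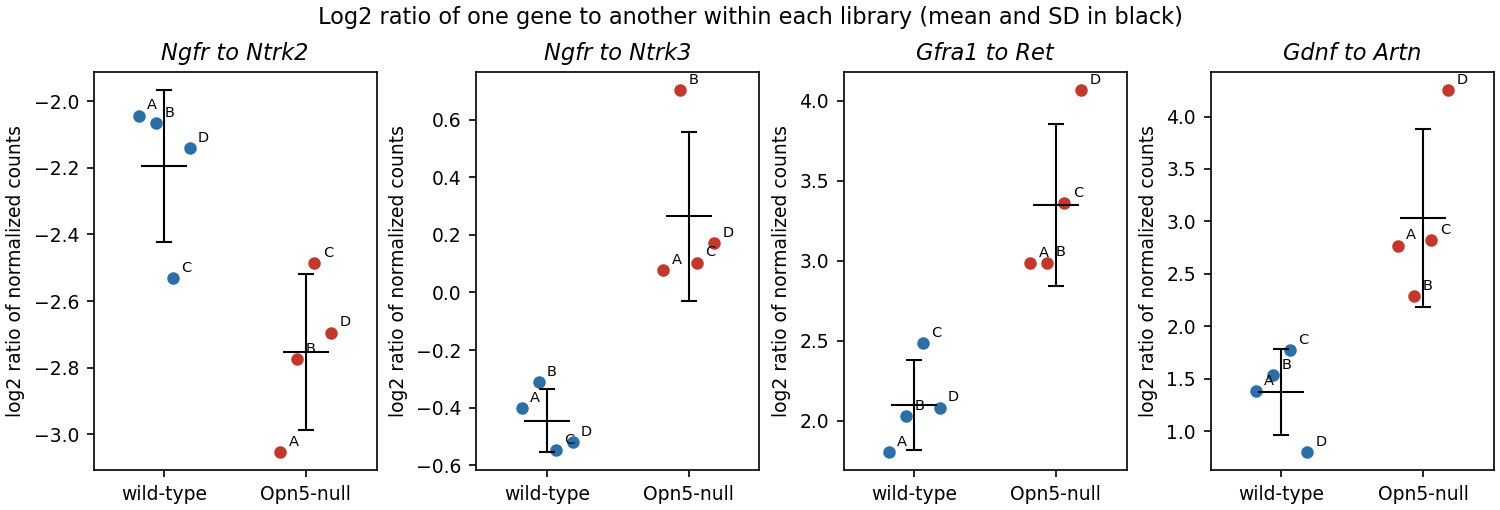
Log2 ratio of the normalized counts of one gene to another within each library (vertical axis, 1 panel per ratio), wild-type in blue and Opn5-null in red, with the mean and SD of 4 libraries in black. Ngfr to Ntrk3, Gfra1 to Ret and Gdnf to Artn lie higher in every Opn5-null library than in any wild-type library.

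Of 14 other genes that belong to the 2 families or were listed with them, 9 were measured, of which 4 rose and 1 fell. Over all genes tested, 18.8% rose and 13.5% fell. The called genes were Gdf15 and those of sortilin-family receptors, and none of Ntf5, Gfra2 and Gfra3 was called. The genes of sortilin-family receptors, which bind pro-neurotrophins or sort neurotrophins and Trk receptors within cells, moved in both directions. Sorcs2 rose 2.91-fold, Sorcs3 and Sorl1 rose by 1.72 and 0.73 on the log2 scale, and Sort1 fell by 0.49. The count of falling genes in this list ran from 0 to 3 over the alternatives (0 without Opn5-null B, or wild-type A, C or D, and 2 without Opn5-null C or D, or wild-type B). Gdf15, whose product signals through RET by the co-receptor GFRAL, rose by 2.16. Ntf5, which encodes the other TrkB ligand of the family, had a log2 fold change of -0.93 (adjusted p = 0.0506 by limma), and the artemin co-receptor gene Gfra3 one of -0.90 (adjusted p = 0.0515 by limma). Gfra2 and Ncam1 had log2 fold changes of -0.16 and 0.21 and did not pass. Sorcs1, Nrtn, Pspn, Gfra4 and Gfral were not analysed here.

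Of 37 genes for processing, adaptors and signalling below these receptors, 12 rose and 4 fell, with a median log2 fold change of -0.001. Over all genes tested, 18.8% rose and 13.5% fell. The adaptor gene Sh2b2 rose by 3.90 on the log2 scale, and the docking protein gene Gab2 and the pro-protein convertase gene Pcsk5 by 1.51 and 1.44. Grb2, an adaptor gene that couples receptors to Ras, rose by 0.78. Plat, the gene of tissue plasminogen activator, which leads to cleavage of pro-BDNF, fell by 0.68. The phospholipase gene Plcg1, which lies below Trk receptors, fell by 0.46, and Pcsk6 and Spry1 by 1.18 and 1.01. Among 18 other trophic factor genes and receptors, 7 rose and 3 fell, with a median of 0.15. Lif and Cxcl12 rose by 2.53 and 1.03, and Vegfa and Hgf by 1.36 and 1.46. The ciliary neurotrophic factor receptor gene Cntfr fell by 2.68, and Sema3a and Gmfb by 0.71 and 0.26. Sensory neuropeptide genes and their receptors had 1 rising and 3 falling of 8: the galanin gene Gal rose by 1.36, and Vipr1, Adcyap1r1 and Npy1r fell by 2.12, 1.27 and 1.93 on the log2 scale.

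Nerve and glial markers were read beside these genes, and beside shares of 18.8% higher and 13.5% lower over all genes tested. Of 9 axon markers measured, 2 rose and 1 fell: Gap43 and Uchl1 rose by 2.23 and 1.21, and Nefm fell by 2.42 on the log2 scale. Their summed level was 1575 to 3442 normalized counts in Opn5-null and 656 to 918 in wild-type corneas. Without Gap43 and Uchl1, left out after their values were seen, the other 7 axon markers summed to 161 to 300.4 and 241 to 323, so that the higher sum rested on those 2 genes. Nefl was not called, with a log2 fold change of -2.10 (adjusted p = 0.0674 by limma). It lay at 0 to 16.7 normalized counts in Opn5-null and 17.7 to 19.3 in wild-type libraries, without overlap. A further 7 axon markers, Prph and the sodium channel gene Scn10a among them, were not analysed here. Of 24 Schwann cell markers, 3 rose and 8 fell, with a median log2 fold change of -0.37 against -0.02 over all genes. Sox10, 1 of the markers that were not called, had a log2 fold change of 0.61 (adjusted p = 0.0800 by limma). Cnp, S100b, Pmp22 and Prx fell, with log2 fold changes of -0.47, -1.64, -0.69 and -0.46. Egr2, which is also an activity-response gene, and Gpm6b rose by 2.94 and 0.45 on the log2 scale, and Gfap rose 2.60-fold. The count of Schwann markers that fell ran from 3 to 12 over the alternatives: it was 3 when wild-type A was left out, 4 when wild-type C or D was, 11 with quantile or upper-quartile scaling, and 12 without Opn5-null D or with limma-voom. The count of Schwann markers that rose ran from 2 to 6, the latter with limma-voom. In the axon list, 1 marker rose in place of 2 without Opn5-null A or wild-type A or C. There 2 fell in place of 1 without Opn5-null C, with limma-voom, or with 8 rather than 1 added before taking logs. The summed Schwann level was 19624 to 53998 in Opn5-null and 67973 to 81688 in wild-type corneas. Mal, which epithelia also express, made up 8018 to 38082 and 51075 to 63101 of it, and without Mal, left out after its values were seen, it was 11606 to 15916 and 16583 to 18729 normalized counts. The part of axons and Schwann cells in the members' values was not tested. Of 12 genes tied to the repair state of Schwann cells, 4 rose and 3 fell, with Gdnf, Bdnf and Ngfr themselves among them.

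Marker lists of other cell types follow, and the part of these cell types in the members' values was not tested. Beside their counts, 18.8% of all genes tested were higher and 13.5% lower in Opn5-null corneas. Neutrophil markers rose in 13 of 14 cases (Acod1 by 5.69, Trem1 by 4.66, Clec4e by 4.08 and Hcar2 by 3.41), with summed levels of 85027 to 295406 against 21399 to 41524 normalized counts. Monocyte and macrophage markers rose in 10 of 14 (Ly6c2 by 4.56, Fcgr1 by 3.78, Ccr2 by 2.45 and Adgre1 by 1.90), with sums of 38997 to 106793 against 7981 to 13357. Keratocyte and stromal markers rose in 5 and fell in 2 of 14, with sums of 195502 to 262919 against 187128 to 223722. Activity and handling response genes rose in 10 and fell in 1 of 19 (Nr4a3 by 5.73, Nr4a1 by 3.60, Gadd45b by 3.16 and Socs3 by 2.88), with sums of 43897 to 148114 against 31582 to 47528. Lens markers fell in 12 of 13 and conjunctival markers in 7 of 9, and melanocyte markers rose in 1 and fell in 3 of 7. Pericyte and vessel markers rose in 3 and fell in 2 of 11, with overlapping sums (6555 to 7814 against 6807 to 8308). Corneal endothelial markers fell in 2 of 9, and their sums overlapped too (48039 to 74212 against 58212 to 61746). The labelled tissue was borne out by Krt12, the keratin of corneal epithelium, at 15836 to 189385 normalized counts over the 8 libraries, and by Kera, the keratocyte gene keratocan, at 3847 to 10206. Opn5, the targeted gene, was not analysed here, so the genotypes rest on the labels.

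The genes whose pattern over the 8 libraries was most like each member's were found by Pearson's r of log2(normalized count + 1), a description that includes the genotype difference. For Gdnf they were Rnf130, Errfi1 and Cmtm3 (r = 0.995 to 0.997), and for Gfra1 they were P3h1, Wisp1 and Plod2 (r = 0.992 to 0.994). Ntf3 was most like Efr3a, Pax6 and Epb41l4a (r = 0.995 to 0.997), Pax6 being the transcription factor of the corneal epithelium. Ntrk3 was most like Mill2, Klhl23 and Lars (r = 0.987 to 0.996), and Ngfr like Ercc6l2, Oxct1 and Ccdc61 (r = 0.987 to 0.991). For Bdnf they were the mitochondrial gene mt-Nd6, Nup62cl and Tdrkh (r = 0.980 to 0.987), and for Ntrk2 they were Ppp1r16a, Fyco1 and Adgrl2 (r = 0.953 to 0.981). Artn had Prkab2, Sprr2g and Klk10 (r = 0.942 to 0.948), and Ret had Ece2, Apobec3 and the mitochondrial transfer RNA gene mt-Te (r = 0.923 to 0.932). With 8 libraries and 12185 candidate genes (12186 for Bdnf), high values of r arise readily.

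**Figure D5:**
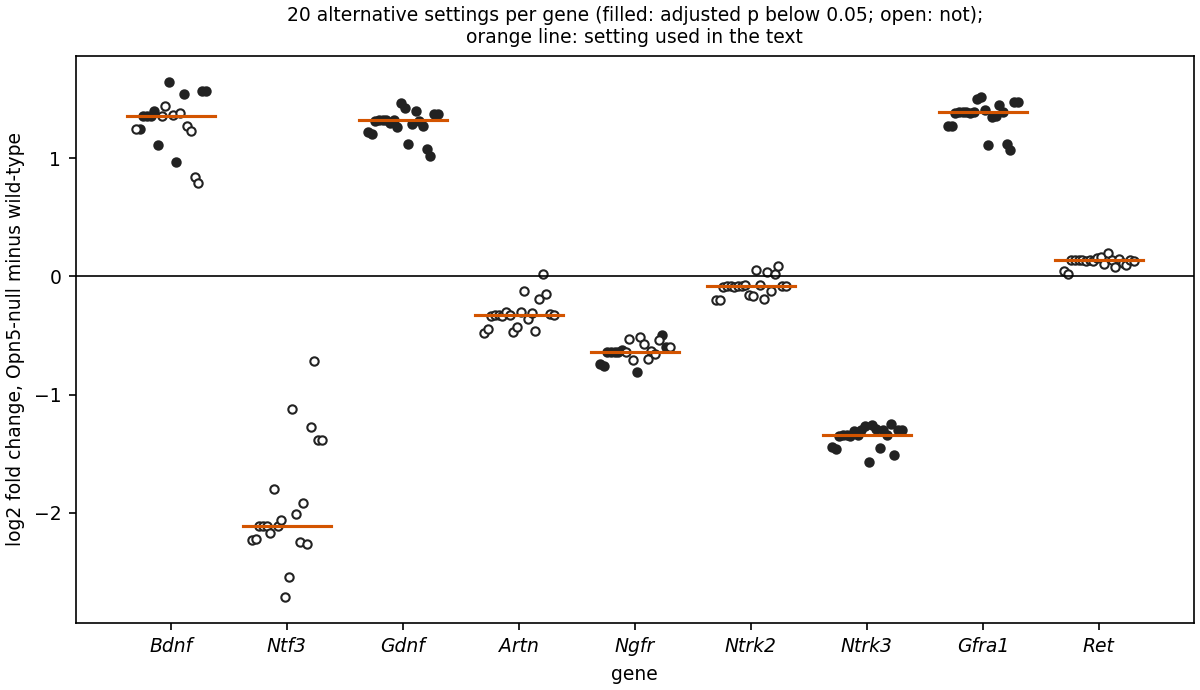
Log2 fold change, Opn5-null minus wild-type (vertical axis), of each member under 20 alternative settings (filled points: adjusted p below 0.05, open points: not) and in the fit used in the text (orange line). Gdnf, Gfra1 and Ntrk3 are filled throughout, Bdnf and Ngfr are partly open, and Ntf3 spreads from -2.71 to -0.72 with all points open.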

How the data were processed

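Bulk total RNA of debrided corneas was sequenced as 8 libraries, 4 per genotype. The labels' protocols give depletion of ribosomal and globin RNA with a stranded kit. RSEM 1.3.1 was used, per the submitters' processing notes; the sources used here name no aligner, build, annotation or strand setting. The deposited signal values behave as reads over 1 size factor for each library: in units of the smallest value above 0 in a column, they were whole for 100% of values within 0.001, with 21111715 to 28219234 reads per library. Adjusted p-values and log2 fold changes in the authors' deposited table are theirs.

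The main test was limma 3.58.1 (R 4.3.3, intensity trend, robust) on log2(value + 1), keeping genes that reached 1 in 4 or more libraries, with Benjamini-Hochberg adjustment over all genes and a threshold of 0.05. Folds are ratios of mean normalized counts, and log2(value + 1) understates changes of low genes. This step was first run on simulated data. These had the same spread in both genotypes and far fewer changed genes than were called here, so they do not cover those features. Alternatives included edgeR 4.0.16 and DESeq2 1.42.0 on recovered reads. Limma-voom was also run on those reads, always with quality weights per library. Named genes are the 9 members, called genes of the family list, up to 4 called genes per direction of other lists, and the 3 genes most like each member. Members and lists were chosen with earlier results of these data known. Of 16085 identifiers tested, 16057 matched GENCODE M21 (GRCm38), the source of chromosomes, exon lengths and overlaps. Replicate pairs differed by more than sampling noise, and more so among Opn5-null libraries. Chi-square per gene was 10.4 to 30.4 for wild-type pairs and 45.9 to 199 for Opn5-null pairs. Some genes of the lists, and 1 ratio, are not reported here.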

Additional observations from a re-analysis of the deposited data

Results flagged for a closer look

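In groups of 4 libraries, 2 of 28 groups examined had a library whose gap to its nearest neighbour passed Dixon's 95% critical value, and chance flags about 1 in 20 groups. Ntrk3 measured 293 normalized counts in Opn5-null C, apart from 151 to 166 in the other Opn5-null libraries. The log2 ratio of Ngfr to Ntrk3 was 0.70 in Opn5-null B, apart from 0.08 to 0.17 in the other Opn5-null libraries.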

How the results depend on the processing

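Gdnf, Gfra1 and Ntrk3 kept their direction and their calls under all 20 alternatives. Their log2 fold changes ranged from 1.02 to 1.47, 1.07 to 1.52 and -1.57 to -1.25. Bdnf lost its call under 9: quantile normalization (1.25), the replicate block (1.36, adjusted p = 0.0913), both D libraries left out (0.85), limma-voom (0.79) and 5 left-out libraries, over a left-out range of 0.97 to 1.65. Ngfr lost its call under 10: the replicate block (-0.64, adjusted p = 0.0663), both D libraries left out (-0.53), edgeR (-0.60) and 7 left-out libraries (-0.70 to -0.52), and kept it without Opn5-null C (-0.81). The count of members lower was then 1, also over left-out libraries (1 to 2), and members higher ranged from 2 to 3. Directions that had not passed changed for Ntrk2 without both D libraries (0.022), with limma-voom (0.090) and over left-out libraries (-0.187 to 0.058), and for Artn without both D libraries (0.019). Over left-out libraries the log2 ratio differences ranged from 0.56 to 0.77 (Ngfr to Ntrk3), 1.01 to 1.38 (Gfra1 to Ret) and 1.25 to 1.91 (Gdnf to Artn), with too few libraries to pass. These left-out ratios were chosen after seeing the data. Same-letter deviations correlated at -0.23, -0.18, 0.23 and 0.21 for A to D, and different-letter ones at -0.38 to 0.48. With so few libraries these values cannot decide whether the letters paired the samples. Over all genes, 3029 were higher and 2175 lower. The lower count was 3746 after quantile normalization, 3671 with upper-quartile scaling and 3526 with limma-voom. At a threshold of 0.01, 1818 were higher and 702 lower. Over left-out libraries the lower count ranged from 1078 (without wild-type A) to 2540, with 1242 and 1288 without wild-type C and D, and the higher count from 2225 to 3365. Calls were 58.2% higher with the deposited scaling and 40.3% after quantile normalization, which put the median of all genes at -0.13. Counting error limits Bdnf, with 15 to 127 reads per library. With a filter at 1 CPM in 4 libraries, 2 rather than 4 of the other genes listed with the families were called higher. Sorcs3 and Gdf15, with wild-type means of 6.66 and 6.87 normalized counts, did not pass that filter and were not tested. The summed level of axon markers was 1.47 higher on the log2 scale, and without Gap43 and Uchl1 the difference was -0.31.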
